A study of Populus tremula x Populus alba with 6 samples.

Results

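The regions described here are the deep distal intergenic peaks of a chromatin immunoprecipitation sequencing (ChIP-seq) map of PtrbHLH011 in poplar. The members were selected on annotation and measured depth: a peak belonged when the authors' annotation placed it in distal intergenic sequence and its summit held a pileup, the stacked read coverage, of 20 or more reads. The rule was met by 1029 of the 18975 peaks listed for the P. alba chromosome set (5.42%) and by 972 of the 17040 peaks listed for the P. tremula set (5.70%), 2001 of 36015 peaks in all. They were 20.1% of the 5121 distal intergenic P. alba peaks and 21.2% of the 4590 on P. tremula, and they made up 50.05% and 48.99% of all peaks of that depth.

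The cells were wall-less leaf cells (mesophyll protoplasts) from a poplar hybrid, Populus tremula x Populus alba. All 6 libraries came from cells that transiently expressed PtrbHLH011 fused to 10 copies of the Myc epitope, and they divide into an anti-Myc ChIP group of 3 and an Input group, made without antibody, of 3. The expressed gene was therefore present in both groups, and no cells without it are among the groups listed. Fixation in 1% formaldehyde for 8 min was given for all 6 libraries. Neither the promoter that drove the tagged gene nor the amount of protein made is stated. The label of the cells could not be checked against marker genes, since a peak list holds no expression. No value in either list belongs to a single library, so there is no spread between replicates and no test of ChIP against Input, and how many reads each library held is unknown. Intervals below are exact 95% binomial intervals that cover the counting of peaks only.

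Basic helix-loop-helix (bHLH) factors bind DNA as dimers, typically at short palindromic E-box motifs, and several of them run the iron deficiency response of plants. In Arabidopsis, bHLH11 is known as a negative regulator of iron uptake genes. Intergenic sequence far from genes can hold enhancers, and in plants it also holds much of the repeat content of the genome, where short reads are harder to place. The sequence under the peaks was not analysed here, so no motif or repeat content is given.

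Deep distal peaks split at a fold of 5 were unlike each other in other respects, though median depth was nearly the same on either side. The 339 P. alba and 288 P. tremula peaks whose summits stood at 5 times the local background or more lay closer to genes, were mostly isolated, and more often had a counterpart at the same distance from the same gene on the other chromosome set. The other 690 and 684 peaks lay farther from genes, and were more often found in runs and on scaffolds, the sequences not assigned to a numbered chromosome. Their local background was higher too, which follows by arithmetic from a lower fold at nearly the same median depth. These contrasts are measured below. Pileup chose the members and fold comes from the same call, so values of either are descriptions and were not tested.

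Position is described first. None of the 1029 and 972 members overlapped the span of any gene named in its list. The class and the gene spans come from the same annotation, so this was built into the class and is no separate check of position. The median summit lay 10940 bp from the start of its annotated gene on P. alba and 10907 bp from it on P. tremula, with quartiles at 6210 and 20448 bp and at 6210 and 20993 bp. The class does not keep all members 3 kb clear of genes on both sides. In 48 P. alba members (4.66%) and 41 P. tremula members (4.22%) the summit lay within 3 kb of an edge of its own gene, in each of these past the gene's end.

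Depth was concentrated near the limit of the rule and had a long upper tail. The median member held 34 reads on P. alba, with quartiles at 25 and 55 and a maximum of 2508. On P. tremula it held 35 reads, with quartiles at 25 and 57 and a maximum of 1825. Summits of 20 to 29 reads made up 412 and 382 members, those of 30 to 49 reads 316 and 284, and those of 50 to 99 reads 176 and 183. A further 59 and 64 held 100 to 199 reads, 36 and 34 held 200 to 499, and 30 and 25 held 500 or more. In the whole lists, summits of 20 reads or more made up 10.8% and 11.6% of peaks. Peaks on either side of the limit were alike: the 59 P. alba members of exactly 20 reads had a median fold of 3.45 over a background of 5.08 reads, and the 48 distal peaks of 19 reads had 3.42 over 4.85 reads. On P. tremula the 43 members of 20 reads had a median fold of 3.47, and the 62 distal peaks of 19 reads had 3.72.

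Fold did not follow depth. The median fold was 3.76 on P. alba, with quartiles at 2.84 and 6.05, and 3.53 on P. tremula, with quartiles at 2.72 and 5.70. Across members, Spearman's rho between pileup and fold was -0.01 on P. alba and -0.06 on P. tremula, whereas between pileup and background it was 0.66 and 0.69. These members share libraries, and fold, pileup and background are tied by arithmetic, so the coefficients only describe the lists. The background behind each fold, recovered as (pileup + 1) / fold − 1 reads, had a median of 7.62 reads at P. alba members and 8.28 reads at P. tremula members. In shallow distal peaks, those under 20 reads, it was 0.989 and 0.985 reads, the lowest value in each list. Only 6 and 4 members had a background within 0.01 reads of that floor, against 58.9% and 56.7% of all peaks. From the shallowest to the deepest of the 6 depth classes the median P. alba background was 5.54, 7.62, 15.9, 36.5, 100.4 and 184.3 reads. The median fold in those classes was 3.65, 4.17, 3.93, 3.39, 3.31 and 3.21, so background rose nearly in step with the summit.

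**Figure D1:**
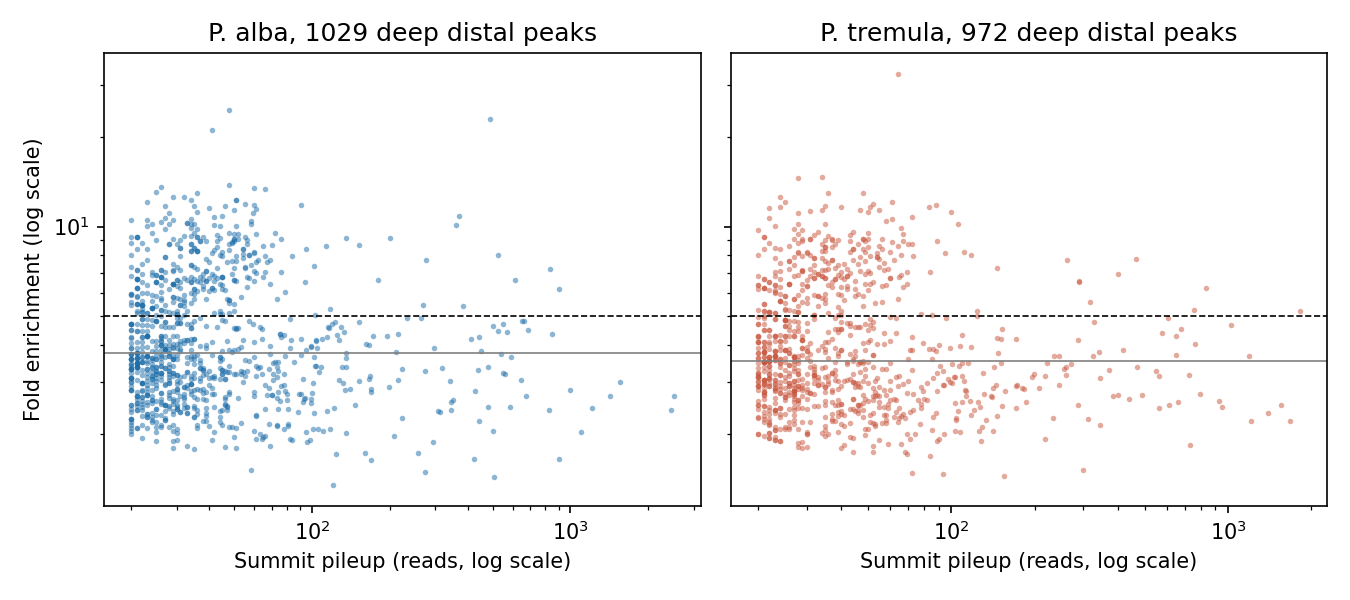
Summit pileup (x axis, reads, log scale) against fold enrichment (y axis, log scale) for each deep distal intergenic peak, with P. alba on the left and P. tremula on the right. The grey line is the median fold (3.76 and 3.53) and the dashed line a fold of 5. Folds above 10 are seen mostly under 100 reads, and most peaks of 500 reads or more lie below the dashed line.

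A fold of 5 or more was reached by 339 P. alba members (32.9%) and 288 P. tremula members (29.6%), where 8.21% and 8.08% of all peaks reached it. A fold of 10 or more was reached by 49 members (4.76%) and 31 members (3.19%), against 0.780% and 0.628% of all peaks. Folds under 3 were found in 297 members (28.9%) and 345 members (35.5%), against 10.1% and 11.4% of all peaks. Both ends of the fold scale were thus fuller among the members than in the lists as a whole. Fold is bound to the depth that chose the members, so nothing more is read from these shares. Of the promoter-class peaks of 20 reads or more, 44.6% on P. alba and 43.4% on P. tremula had a fold of 5 or more. Without the dense window of deep peaks at 14 to 15 Mb on chromosome 13 these shares were 50.6% and 50.2%, and only 7 and 5 deep distal peaks lay in that window. A q value at or under 0.01 was held by 973 members (94.6%) and 902 members (92.8%), compared with 39.8% and 40.1% of all peaks.

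A fold above 20 was reached by 4 members, 3 of them under 100 reads deep. On chromosome 7, upstream of Potri.007G044600, a P. tremula peak (3910728 to 3910824) held 64 reads over the floor background, a fold of 32.7, with its summit 3088 bp from the gene start. Its P. alba counterpart (3911424 to 3911520) held 41 reads at 3052 bp, a fold of 21.1. The peak of the highest P. alba fold, on scaffold_289 (13595 to 13681), held 48 reads at a fold of 24.6, and its P. tremula counterpart (13622 to 13708) held 19 reads at a fold of 10.1, just under the depth limit. A P. alba peak on chromosome 14, described further below, was the remaining member with a fold above 20, and it held 489 reads.

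Several other strong distal peaks had closely matched values on both chromosome sets. On chromosome 15, 36 reads were listed on both, with the P. alba peak (8694843 to 8695028) at a fold of 12.997 and the P. tremula peak (8694975 to 8695160) at 13.03. On chromosome 18, 48 reads were listed on both, with the P. alba peak (10184750 to 10185038) at a fold of 13.8 and the P. tremula peak (10184325 to 10184565) at 13.03. Chromosome 2 held a pair of 26 and 24 reads at folds of 13.6 and 12.6 (18364069 to 18364162 on P. alba), and chromosome 14 a pair of 25 and 28 reads at 13.1 and 14.6 (16446364 to 16446459 on P. alba). In these 4 pairs the summit lay between 6812 and 15305 bp from the gene start, and the backgrounds were under 3 reads.

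Other members of high fold had an unlike counterpart or none. A chromosome 2 peak of 32 reads (21345592 to 21345702 on P. alba) stood at 12.6 times background, and its P. tremula counterpart of the same depth at 7.82. A P. tremula peak of 34 reads on chromosome 11 (10871302 to 10871464) had 14.7 against 11.2, and one of 25 reads on chromosome 17 (2510036 to 2510133) had 12.1 against 7.33. No counterpart was listed for the P. alba peaks on chromosome 1 (26850304 to 26850461, 60 reads, fold 13.4) and chromosome 17 (7117020 to 7117221, 66 reads, fold 13.4), or for the P. tremula peak on scaffold_22 (944243 to 944497, 88 reads, fold 11.8).

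The deepest members stood on high background. The deepest P. alba peak, on chromosome 4 (15885788 to 15885899), held 2508 reads at a fold of 2.70, over a background of 929 reads, and its P. tremula counterpart (15882578 to 15882686) held 1679 reads at a fold of 2.21. On chromosome 13 a P. alba peak (8145124 to 8145257) held 2456 reads at a fold of 2.41, while its counterpart held 728 reads at 1.84. The third deepest P. alba peak, on chromosome 8 (18740471 to 18740986), was 516 bp wide and held 1561 reads at a fold of 2.999, and its counterpart was 827 bp wide with 1190 reads at 3.67. A pair on chromosome 1 (44908076 to 44908199 on P. alba) held 1420 and 1555 reads at folds of 2.69 and 2.51, and a pair on chromosome 5 (1346089 to 1346207 on P. alba) 1215 and 1391 reads at 2.46 and 2.36. An exception to the low folds was the deepest P. tremula member, on chromosome 1 (40635435 to 40635691), with 1825 reads at a fold of 5.18 and no counterpart. Of the members of 500 reads or more, 4 of 30 on P. alba and 3 of 25 on P. tremula had a fold of 5 or more.

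Width separated a small group of broad peaks. The median member was 184 bp wide on P. alba and 182 bp on P. tremula, compared with 120 and 123 bp in shallow distal peaks and 218 and 213 bp in promoter-class peaks of 20 reads or more. Of the members, 41 and 40 were 500 bp or wider, where 0.975% and 1.04% of all peaks were. Among these broad members 65.9% and 65.0% had a fold of 5 or more. The 8 P. alba and 7 P. tremula members of 1000 bp or wider all did, with median folds of 8.21 and 8.01. The widest P. alba member, on scaffold_146 (14958 to 17374), was 2417 bp wide and held 66 reads at a fold of 7.99, and the P. tremula list had nearly the same peak (14960 to 17376, 66 reads, fold 8.01). On chromosome 2, 3 such peaks lay in a row on P. alba (18314380 to 18315553, 18316495 to 18318063 and 18318404 to 18319560). On P. tremula a single peak of 3072 bp (18314345 to 18317416, 95 reads, fold 8.13) lay there beside a peak of 1172 bp (18312233 to 18313404). The other pairs of peaks that were both 1000 bp or wider were on chromosome 14 (16945465 to 16946882 on P. alba, 55 reads in each list) and on chromosome 7 (6114521 to 6115848, 84 reads in each list, and 6118081 to 6119176, 61 and 60 reads). A P. alba peak of 1076 bp on chromosome 5 (10976038 to 10977113) had a counterpart of 573 bp, and both held 40 reads at a fold of 11.6.

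Distance from genes grew with the depth of a distal peak. Distal peaks of 5 to 9 reads had a median distance of 6556 bp from the gene start on P. alba and 6461 bp on P. tremula. At 10 to 19 reads it was 9283 and 9983 bp, at 20 to 49 reads 10507 and 10544 bp, and at 50 reads or more 12097 and 12289 bp. The largest step lay below the limit of 20 reads, so the limit does not mark a break. More than 10 kb separated the summit from the gene start in 54.3% of P. alba members (51.2 to 57.4%) and 53.4% of P. tremula members (50.2 to 56.6%), against 32.7% and 33.6% of shallow distal peaks. For distances over 50 kb the shares were 8.94% and 8.33%, against 2.86% and 3.34%. Counted the other way, 13.3% of P. alba distal peaks 3 to 5 kb from a gene start were deep, 15.4% of those at 5 to 10 kb, 26.9% at 10 to 20 kb, 29.1% at 20 to 50 kb and 44.0% beyond 50 kb. The P. tremula shares were 14.1%, 17.1%, 26.7%, 31.8% and 40.1%.

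**Figure D2:**
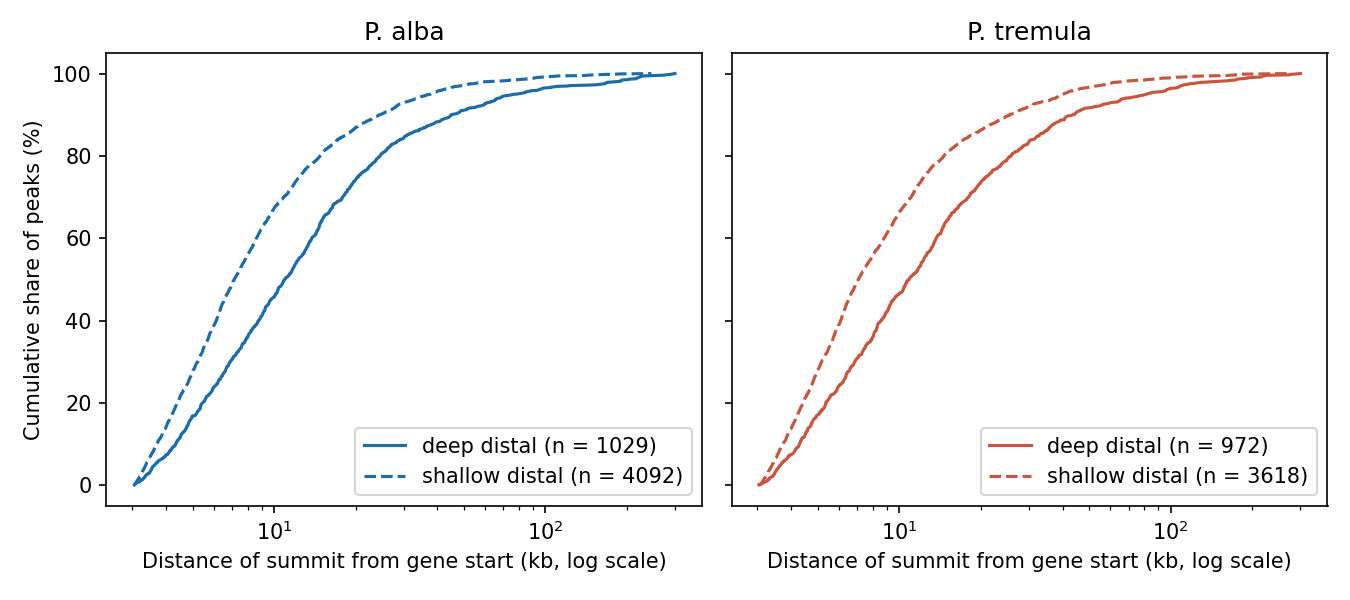
Cumulative share of peaks (y axis, percent) by distance of the summit from the start of the annotated gene (x axis, kb, log scale), for deep distal peaks (solid lines) and shallow distal peaks of under 20 reads (dashed lines), with P. alba on the left and P. tremula on the right. The solid lines run below the dashed ones, with medians of 10940 and 10907 bp against 7124.5 and 7064.5 bp.

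Shallow distal peaks lay more often on the upstream side of their gene than deep ones did. The upstream side held 51.6% of P. alba members and 53.3% of P. tremula members, and 60.2% and 59.8% of shallow distal peaks. The share fell along the depth scale, from 61.7% and 61.5% at 5 to 9 reads to 46.5% (40.8 to 52.3%) and 45.4% (39.8 to 51.2%) at 50 reads or more. Within the members, those nearer to genes had the higher folds: a fold of 5 or more was held by 46.2% of P. alba members at 3 to 5 kb, 38.7% at 5 to 10 kb, 29.9% at 10 to 20 kb, 22.5% at 20 to 50 kb and 18.5% beyond. On P. tremula the shares fell in the same order, from 41.2% to 13.6%.

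Scaffolds held more than their share of the deep distal peaks. On scaffolds lay 187 P. alba members (18.2%, 15.9 to 20.7%) and 182 P. tremula members (18.7%, 16.3 to 21.3%), while 4.70% and 4.82% of all peaks lay there. Shallow distal peaks were on scaffolds in 8.65% and 8.87%, and promoter-class peaks of 20 reads or more in 7.13% and 6.70%. This also rose with depth, from 6.59% and 6.23% of distal peaks of 5 to 9 reads, through 14.8% and 16.2% at 10 to 19 reads and 15.5% and 16.1% at 20 to 49, to 24.6% and 24.5% at 50 reads or more. Members on scaffolds had a median background of 9.46 reads on P. alba and 10.5 reads on P. tremula, and those on chromosomes 7.19 and 7.90 reads.

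Some scaffolds were dense in deep peaks. On scaffold_21, 33 of 40 P. alba distal peaks (82.5%, 67.2 to 92.7%) and 25 of 38 P. tremula distal peaks (65.8%, 48.6 to 80.4%) were deep, and on scaffold_45 13 of 21 and 17 of 30 were. Of the scaffold_21 members, 20 on P. alba and 17 on P. tremula were annotated to a single gene, Potri.T006100, at distances up to 300731 and 300935 bp, the farthest in each list. The P. alba peak at that distance (910096 to 910243) held 503 reads at a fold of 2.06, and the P. tremula peak (910311 to 910405) held 49 reads at 2.08. At such distances the gene in the annotation is the nearest one listed and no more than that. Among the 119 and 122 scaffolds with a distal peak, 57 and 48 had a deep one.

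Among the 19 numbered chromosomes the spread was smaller. The share of distal peaks that were deep ran from 13.4% on chromosome 6 (9.68 to 17.96%) to 23.1% on chromosome 18 (17.4 to 29.6%) on P. alba, and from 10.8% on chromosome 10 (7.003 to 15.8%) to 23.7% on chromosome 18 (17.6 to 30.7%) on P. tremula. The intervals of most chromosomes overlapped, and those of the scaffolds (30.6 to 38.7% and 31.98 to 40.6%) lay above the value of every chromosome in either list. Within chromosomes the peaks were uneven. The 1 Mb window with the most deep distal P. alba peaks was at 16 to 17 Mb on chromosome 14, with 26 deep among 56 distal peaks. The window at 18 to 19 Mb on chromosome 1 came next, with 23 of 45, and it was first on P. tremula, with 20 of 39. Windows on chromosome 11 (1 to 2 Mb, 16 of 31 and 15 of 28) also stood among the first 5 in both lists.

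**Figure D3:**
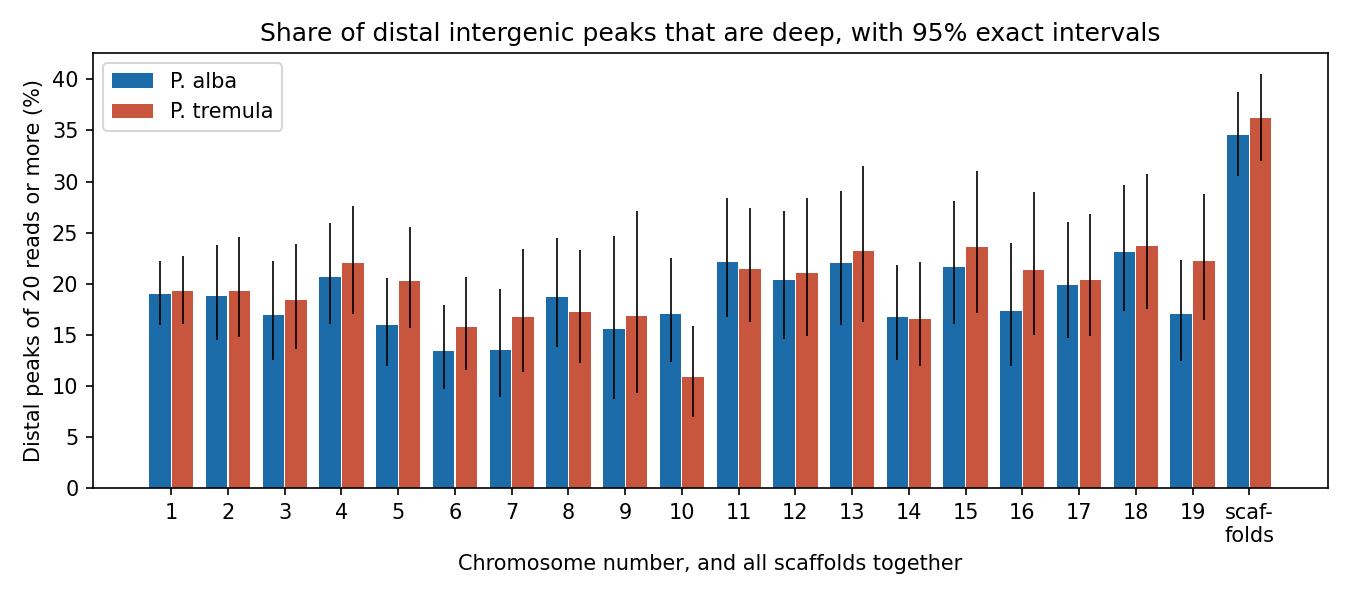
Percent of distal intergenic peaks that held 20 reads or more (y axis) on each of the 19 chromosomes and on all scaffolds together (x axis), in blue for P. alba and in red for P. tremula, with exact 95% binomial intervals. The scaffold bars stand at 34.6% and 36.2%, above every chromosome.

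Many members stood close to one another. Another member lay within 10 kb of 410 P. alba members (39.8%) and 386 P. tremula members (39.7%), which formed 147 and 143 runs, and 56 and 53 runs had 3 members or more. The nearest peak of any class held 20 reads or more for 41.8% of P. alba members and 43.7% of P. tremula members, for 13.3% of shallow distal peaks in each list, and for 51.4% and 50.4% of promoter-class peaks of 20 reads or more. Without the chromosome 13 window those last shares were 44.4% and 42.5%, close to the members' own. Deep peaks of both annotation classes thus often lay next to deep peaks. Members in runs had a median fold of 3.28 and 3.06 and a background of 10.4 and 11.5 reads. Members outside runs had a fold of 4.28 and 3.91 and a background of 6.23 and 6.67 reads.

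The P. alba run with the most members lay near Potri.011G017000 on chromosome 11. A P. tremula run near the same gene tied for the most members in its list. On P. alba 10 members stood within 6882 bp (1414069 to 1420950), each of 21 to 29 reads, with folds of 2.15 to 3.94. On P. tremula 9 members of 20 to 30 reads stood within 6108 bp (1414472 to 1420579), with folds of 2.28 to 3.65, and 7 peaks in each run had a counterpart in the other list. The median background in the run was 7.96 and 8.51 reads. A run on chromosome 4 had 8 P. alba members (14335916 to 14345534, 22 to 68 reads) and 6 P. tremula members (14332425 to 14342237, 26 to 109 reads), but only 2 of these had counterparts in each list. On chromosome 1 a run of 7 P. alba members held 25 to 903 reads each (17990122 to 18011381). A P. tremula run of 7 members held 57 to 924 reads (18003393 to 18030279). Their median backgrounds were 103.4 and 44.4 reads. Counterparts were listed for 3 of these P. alba and 1 of these P. tremula members. Positions belong to each list's own sequences, so overlapping positions do not show a shared run. On scaffold_45 a run of 9 members of 27 to 287 reads (102662 to 110901) was present on P. tremula, and 2 of them had a counterpart. On chromosome 18, 6 members in each list formed a run (6381854 to 6402411 on P. alba, 6383460 to 6399468 on P. tremula), with median folds of 3.18 and 3.14. Only 1 member of each of these runs had a counterpart. A further run of 6 P. alba members lay on chromosome 1 (18740778 to 18750116), 3 of them with a counterpart. The 5 runs described in each list, where P. alba has further runs of 6 members, had median folds between 2.46 and 3.18. Members with a fold above 5 were present in the scaffold_45 run, at up to 7.73, and in the chromosome 18 runs, at up to 5.63 and 7.13.

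In the annotation, 716 P. alba and 685 P. tremula genes were assigned members. A single member was assigned to 77.1% and 77.7% of those genes, and 71 and 59 genes had 3 or more. A promoter-class peak was listed for 25.7% of the P. alba genes (22.5 to 29.1%) and 20.7% of the P. tremula genes (17.8 to 24.0%). Among genes whose distal peaks were all shallow the shares were 27.2% and 24.9%, inside the P. alba interval and above the P. tremula one. In 497 genes a member was annotated on both chromosome sets, which is 69.4% of the P. alba and 72.6% of the P. tremula genes. The lists give gene identifiers and no names or functions, so genes of iron uptake, iron regulation or cell wall formation could not be counted among them.

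The remaining comparison was between the chromosome sets. A peak had a counterpart when a peak in the other list was annotated to the same gene with its summit within 100 bp of the same distance from the gene start. A counterpart was found for 516 P. alba members (50.1%, 47.0 to 53.2%) and 503 P. tremula members (51.7%, 48.6 to 54.9%), against 66.3% and 73.8% of all peaks. Shallow distal peaks had one in 45.2% and 51.2%, as few as the members or fewer, and promoter-class peaks of 20 reads or more in 71.5% and 73.5%. The share did not change evenly with depth. Of P. alba distal peaks, 50.8% had a counterpart at 5 to 9 reads, 28.5% at 10 to 19, 48.2% at 20 to 49 and 54.8% at 50 reads or more. The match asks for equal spacing to the gene, and the shares were lower at long distances. Of the P. alba members 61.3% had a counterpart at 3 to 5 kb, 56.2% at 5 to 10 kb, 47.6% at 10 to 20 kb, 38.2% at 20 to 50 kb and 40.2% beyond. Of the members with none, 85.8% and 85.1% were annotated to a gene that had some peak in the other list, and 62.2% and 62.7% to a gene with a deep distal peak there. A missing counterpart therefore does not show that binding was limited to 1 parental chromosome set.

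In 446 pairs both peaks were members. Their folds were related across pairs (Spearman's rho 0.84), as were their pileups (0.72), values that share the same libraries and carry no p. Dividing the P. alba by the P. tremula fold gave a median log2 ratio of 0.06 with an SD of 0.45 across pairs, and it ran from -2.33 to 2.88. The fold was higher on P. alba in 262 pairs (58.7%, 54.0 to 63.4%) and on P. tremula in 184. The same share over all pairs is not given here, so no lean particular to the members is read from it. The pileup was higher on P. alba in 150 pairs, higher on P. tremula in 152, and identical in 144 (32.3%, 28.0 to 36.8%). Of the 12003 pairs without a member, 79.1% had identical pileups, but a small count is matched more easily than a large one. A difference in fold of more than 1.5 times was found in 60 pairs (13.5%, 10.4 to 17.0%), against 142 of the pairs without a member (1.183%). Pairs without a member were mostly shallow. Of paired P. alba distal peaks, 0.899% differed that much at 5 to 9 reads and 13.3% at 10 to 19 reads. A share this high is therefore not particular to the members.

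**Figure D4:**
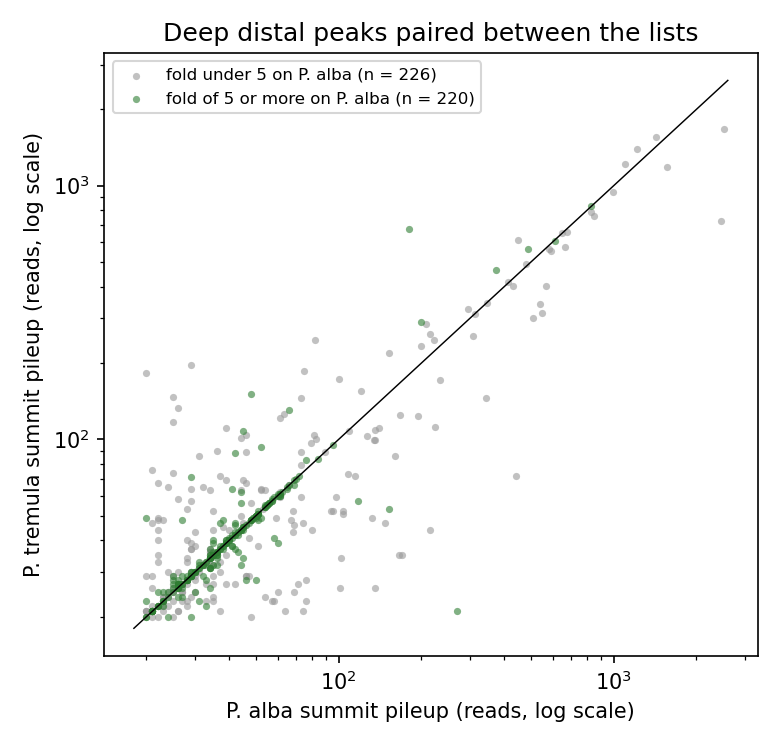
Summit pileup on P. alba (x axis, reads, log scale) against P. tremula (y axis, reads, log scale) for the 446 pairs in which both peaks were deep distal intergenic peaks, coloured by the P. alba fold. Green points (fold of 5 or more) crowd along the line of equality, and grey points (fold under 5) are scattered on both sides of it.

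Members were also set beside promoter-class peaks above the same depth limit. The counterpart's pileup was within 10% of the peak's own for 48.4% of paired P. alba members (44.1 to 52.9%) and 69.3% of paired promoter-class peaks of 20 reads or more (65.7 to 72.8%). On P. tremula the shares were 49.3% (44.9 to 53.8%) and 69.7% (66.0 to 73.1%). Among paired members the share depended on fold. It was 74.2% at a fold of 5 or more and 26.1% under 5 on P. alba, and 77.3% and 28.2% on P. tremula. The promoter-class peaks were not split by fold here, so the contrast is not one of annotation class alone. Folds differed by more than 1.5 times in 17.1% and 15.7% of paired members, and in 6.04% and 6.43% of those promoter-class peaks. Both lists were made from the same cells, and whether the same reads were counted on both chromosome sets was not tested.

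In 4 of the 5 pairs of members with the largest difference in fold, the background differed more than the pileup. On chromosome 14, upstream of Potri.014G186300, a P. alba peak (16387411 to 16387698) held 489 reads over a background of 20.3 reads, a fold of 23.0. Its P. tremula counterpart (16383460 to 16383859) held a similar 564 reads but over 179.2 reads, a fold of 3.14. On scaffold_37 both peaks held 66 reads, at a fold of 1.97 over 33.0 reads on P. alba (247753 to 247864) and 9.93 over 5.75 reads on P. tremula (247631 to 247891). Chromosome 4 had a pair of 58 and 41 reads at folds of 10.2 and 1.84 (9470380 to 9470598 on P. alba), over 4.77 and 21.8 reads. The exception, also on chromosome 4, had 46 and 89 reads at folds of 2.67 and 8.92 (12683240 to 12683450 on P. alba), over 16.6 and 9.09 reads. A chromosome 2 pair had 45 and 108 reads at folds of 8.00 and 2.04 (18386406 to 18386496 on P. alba), over 4.75 and 52.4 reads.

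Members on either side of a fold of 5 stood apart in their counterparts and positions. Median pileups of the higher and lower fold members were close, 35 and 33 reads on P. alba and 35 reads in each on P. tremula. A counterpart was listed for 70.8% of higher fold and 40.0% of lower fold P. alba members, and for 75% and 42.0% on P. tremula. Among those with a counterpart, the pileup was identical in 50% and 9.42% on P. alba and in 52.8% and 10.5% on P. tremula. The width was identical in 42.9% and 4.35%, and in 45.4% and 5.92%. Another member lay within 10 kb of 23.0% of higher fold and 48.1% of lower fold P. alba members, and of 24.3% and 46.2% on P. tremula. Scaffolds held 12.98% and 20.7%, and 12.8% and 21.2%. The median distance from the gene start was 8349 and 12871 bp on P. alba and 7947.5 and 12630 bp on P. tremula. The summit lay in the central 50% of the peak in 84.4% of higher fold and 68.4% of lower fold P. alba members, and in 81.6% and 72.2% on P. tremula. The split was chosen with the values in view, and without values per library its contrasts could not be tested.

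**Figure D5:**
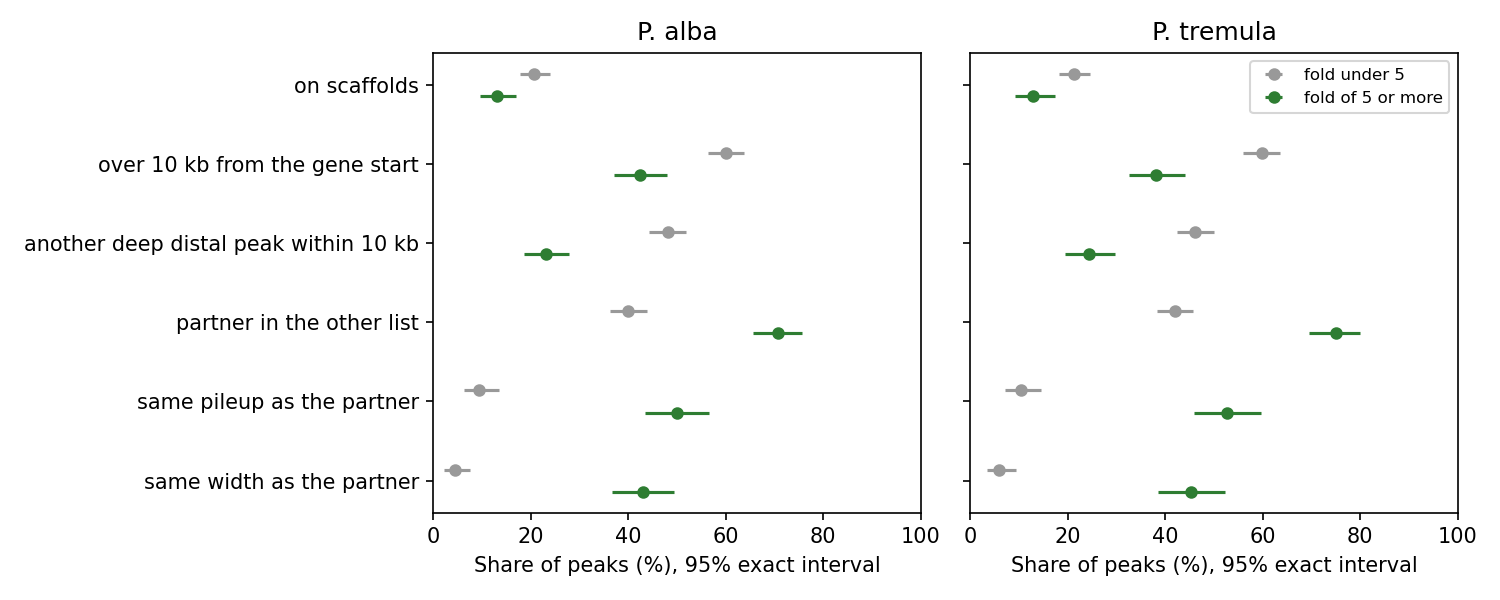
Share of deep distal peaks (x axis, percent, with exact 95% binomial intervals) with each of 6 properties (y axis), for peaks of fold 5 or more (green) and under 5 (grey), with P. alba on the left and P. tremula on the right. Shares of identical pileup and width are among peaks with a counterpart, called a partner in the plot. In each of the 6 rows the green and grey intervals are apart in both lists. This is no test, since the intervals cover the counting of peaks only and the split was chosen with the values in view.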

How the data were processed

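The 2 deposited peak tables, for the P. alba and P. tremula chromosome sets, list each peak in 2 rows and were reduced to 1. The submitters' processing notes list ChIPseeker 1.18.0, MACS2 2.2.7.1 and BWA 0.7.17.2. Not given in the sources used here were the genome builds, calling options, pooling of libraries and control. The authors' values are, per the file headers, the summit pileup (coverage signal in reads), the fold enrichment ratio over local background, and −log10 p and q values. Positions are 1-based on each table's own sequences.

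Members, peak lists and splits were chosen with earlier results of these data known. Named peaks were the 10 highest folds, 5 highest pileups, all of 1000 bp or wider, the largest fold ratios between counterparts, the farthest from genes and the largest runs; peaks shown by position were drawn from these. Runs joined members at most 10 kb apart. Counterparts were matched within 100 bp, closest first. False and missed matches between the lists were not measured. Recovered backgrounds above the floor were whole multiples of 0.231 and 0.230 reads, within 0.003 reads, at 82.2% of 1023 P. alba and 60.95% of 968 P. tremula members. With a background under 5 reads they were such multiples at 87.2% of 274 and 89.2% of 231 members. Among all peaks under that limit the shares were 79.7% of 6192 and 79.2% of 5774, so the pattern is not particular to the members. Shares carry exact (Clopper-Pearson) 95% intervals, and no test was run. Python 3.11.15, pandas 2.3.3, numpy 2.4.6, scipy 1.17.1 and matplotlib 3.10.9 were used. Words for 5 gene groups, searched in the gene columns, matched 0 genes, since identifiers carry no names.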

Additional observations from a re-analysis of the deposited data

How the results depend on the processing

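Of 66 alternative values, 38 stayed within the limits set (the 95% interval of the reported value, or 1.5 times for counts) and 28 did not. A depth limit of 10 reads gave 2056 P. alba and 1927 P. tremula peaks, a P. alba median distance of 10022 bp, 49.8% and 44.8% with another such peak within 10 kb, and 39.3% and 42.7% with a counterpart. A limit of 50 reads gave 301 and 306 peaks, median distances of 12097 and 12289 bp, 24.6% and 24.5% on scaffolds, and 54.8% with a counterpart on P. alba. Measured to the nearest gene edge, the median distance was 9912 and 9807 bp. Without scaffolds, 36.5% of P. tremula members had another within 10 kb. A gap of 2 kb gave 25.5% and 26.2%, and 50 kb gave 57.0% and 57.2%. A matching tolerance of 20 bp gave counterparts to 25.3% and 24.8%, and 500 bp to 64.1% and 67.0%. With q at or under 0.01 the P. tremula median fold was 3.68. Removing the chromosome 13 window, chosen after seeing the data, moved the promoter-class share at a fold of 5 or more to 50.6% and 50.2%. No paired analysis was possible because peaks are not tied to libraries, which also kept any replicate from being left out. At the floor background, where 58.9% of all P. alba and 56.7% of all P. tremula peaks lay, fold is set by depth alone.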
